A study of Mus musculus with 6 samples.

Results

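The cytochrome P450 (Cyp) genes were examined in RNA-seq counts from mouse renal cortex. They were taken as every gene in the count table whose symbol begins with Cyp and a digit, which gave 101 of the 22040 genes listed. All 101 were matched by identifier to the GENCODE M21 annotation, 100 under the same symbol, while the gene listed as Cyp2c44 stands there as Cyp2c23. The IR24h group held 3 libraries from C57BL/6 mice whose renal pedicles on both sides were clamped for 30 min and then released, with kidneys taken 24 h after reperfusion. The sham group held 3 libraries from C57BL/6 mice housed alike and labelled sham. All libraries are labelled wild type. The sources used here do not give age, sex or the steps of the sham surgery. Nor do they say that each library is of its own mouse, so p-values measure the spread between these libraries. The comparison asks how the kidney's P450 transcripts differ after ischaemia and reperfusion, a model of acute kidney injury.

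P450 enzymes are haem proteins that insert oxygen into their substrates, using electrons passed on by a reductase or, in mitochondria, by a ferredoxin. In the kidney they are concentrated in the proximal tubule. They turn arachidonic acid into epoxides (Cyp2c and Cyp2j epoxygenases) or into hydroxylated products (Cyp4a omega-hydroxylases), which act on vessel tone and salt transport. They also activate and break down vitamin D, degrade retinoic acid, and oxidise sterols and foreign compounds.

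The libraries held 12877237 to 15998975 counts in IR24h and 14339985 to 17061844 counts in sham. Genes of the mitochondrial genome took 68.9, 26.2 and 49.2% of the counts in IR24h libraries 1, 2 and 3, against 13.1, 14.2 and 14% in the sham libraries. The injury genes Havcr1 and Lcn2 were both called higher in IR24h. IR24h library 2 stood apart in several ways. Fat cell markers summed to 86.2 CPM (counts relative to the scaled library total) in it, against 9.94 and 0.961 CPM in IR24h libraries 1 and 3 and at most 0.324 CPM in sham, and Lep, the fat cell hormone leptin, had 435 counts there and 0 in the other 5 libraries. The deposited values of the 2 groups had also been made differently. FPKM relates a count to gene length and library total, so count and FPKM together give the length used. This implied length differed between the groups for 47.8 to 63.0% of genes on chromosomes 15, 16, 17, 18 and 19, and for 2.38 to 5.47% on each other chromosome. Among P450 genes it differed for 11 of the 44 in which it could be compared, all of them on chromosome 15 or 17 and all longer in sham, by 1.16 to 4.69 times. For these genes a difference in counts and a difference in processing cannot be told apart, and each is given below also per implied length, an alternative added after seeing the data. With summed counts taken as the FPKM total in IR24h, most lengths matched when the sham totals were set 7.9, 8.34 and 9.73% above their summed counts. The processing thus differed between whole groups, and its effect on genes of equal length was not tested.

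Of the 101 P450 genes, 45 had enough counts to be tested, 29 had 0 counts in all 6 libraries, and 27 had counts too low for the filter, with at most 95 in total. A gene was called when edgeR's quasi-likelihood test gave a Benjamini-Hochberg adjusted p under 0.05 over all 13609 genes tested. In IR24h, 9 P450 genes fell and 0 rose. The fallen ones were 20% of those tested, beside 7.62% of all genes tested that were called lower, 8.65% that were called higher and 16.3% called in either direction. At an unadjusted p under 0.05, 12 were lower and 6 higher. DESeq2 called 11 P450 genes lower and 4 higher, beside 12.5% of all genes lower, 15.3% higher and 27.8% in either direction. limma-voom called 11 lower and 1 higher, beside 8.8% and 7.39% of all genes (16.2% in either direction). Without IR24h library 2 edgeR called 15 lower and 7 higher, but it then called 24.5% of all genes lower and 23.9% higher (48.3% in either direction). Per implied length it called 9 lower and 3 higher, beside 7.58% and 11.7% (19.2% in either direction). Without any 1 sham library 5 lower calls were left, those of Cyp2d26, Cyp2e1, Cyp2j11, Cyp2d12 and Cyp27a1, and 237, 212 or 196 of all genes were called lower instead of 1037. Scaling by library size only moved the all-gene median to -0.39 on the log2 scale, so values under that scaling are read against it. The median log2 fold change of IR24h over sham was -0.25 for the P450 genes tested and 0.05 for all genes tested, with 25 P450 genes below 0 and 20 above. All 3 IR24h libraries lay below all 3 sham libraries for 12 P450 genes (26.7%, beside 21.7% of all genes tested), and above them for 5 (11.1%, beside 19.9%). In tissue samples such as these, fewer cells of a type and less RNA per cell cannot be told apart.

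The 3 most abundant P450 transcripts of the sham cortex, Cyp4b1, Cyp2j5 and Cyp2e1, all fell in IR24h. P450 genes summed to 2467.5, 4156.1 and 2627.0 CPM in the IR24h libraries, against 8110.3, 7285.2 and 8740.0 CPM in the sham libraries. The sums did not overlap. Cyp4b1 took 1.74, 12.0 and 3.41% of this sum in the IR24h libraries, against 40.5, 41.0 and 38.4% in sham, and Cyp2e1 took 1.12, 2.46 and 1.96% against 15.9, 11.7 and 16.1%. The omega-hydroxylase Cyp4a10 took a larger share in every IR24h library, with 25.5, 11.8 and 19.8% of the sum in IR24h and 3.14, 3.32 and 3.98% in sham. Cyp2j5 took 7.31, 14.8 and 15.4% in IR24h, against 15.8, 17.4 and 14.4% in sham, so its share was lowest in IR24h library 1 and overlapped between the groups. IR24h library 2 differed from the other 2 in several shares. Cyp24a1 took 19.1% of its P450 sum, against 1.81 and 1.37% in IR24h libraries 1 and 3 and 0.381 to 0.54% in sham. Its Cyp4b1 share was the highest and its Cyp4a10 share the lowest of the IR24h libraries, and Cyp2a4 took 3.1% in it, against 11.5 and 18.1% in IR24h libraries 1 and 3 and 1.71 to 2.99% in sham.

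**Figure D1:**
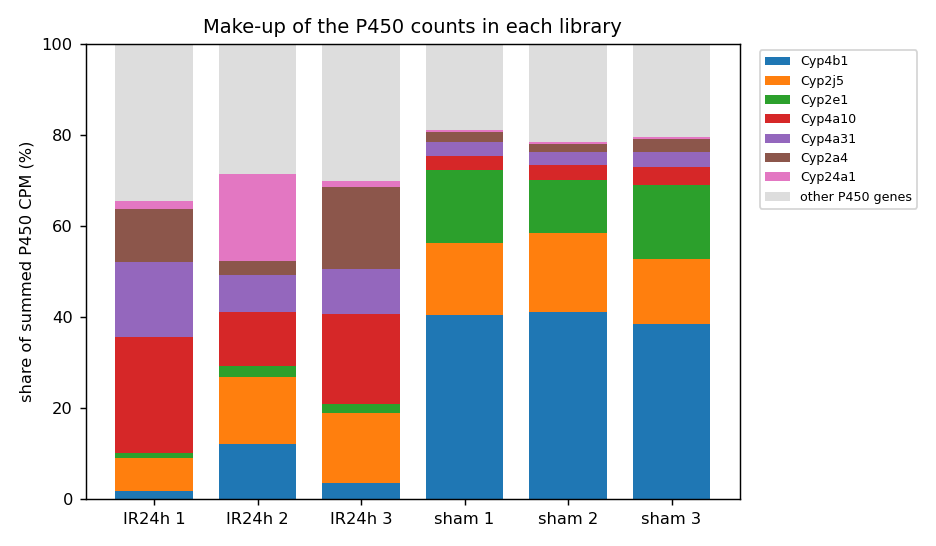
Share of the summed P450 CPM (%, vertical axis) taken by 7 P450 genes and by all others in each library, IR24h libraries left and sham libraries right. Cyp4b1 takes 1.74 to 12.0% in IR24h and 38.4 to 41.0% in sham, while Cyp4a10 takes 11.8 to 25.5% in IR24h and 3.14 to 3.98% in sham.

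Levels can be compared between genes only per length, and were read from the deposited FPKM values within each group. In IR24h the order of the means was Cyp2j5 (170.0 ± 140.2 FPKM, SD, n = 3), Cyp4a10 (162.4 ± 45.5), Cyp2a4 (138.3 ± 84.0), Cyp24a1 (95.9 ± 152.6) and Cyp4b1 (81.3 ± 111.2). The ranges of neighbours in that order overlapped. FPKM use the library total without the scaling applied to CPM. In IR24h libraries 1, 2 and 3, Cyp2j5 had 42.1, 319.8 and 148.2 FPKM, against 120.0, 210.4 and 156.6 for Cyp4a10. Cyp24a1 had 6.87, 272.1 and 8.7 FPKM, so its place rests on library 2. In sham the order was Cyp4b1 (1221.3 ± 61.5 FPKM, SD, n = 3), Cyp2j5 (598.1 ± 26.9), Cyp2e1 (382.1 ± 87.9), Cyp2a4 (122.0 ± 39.5) and Cyp4a10 (108.3 ± 18.1). The first 3 of the sham order did not overlap with one another or with the rest, whereas Cyp2a4 and Cyp4a10 overlapped.

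Promoter sequence is shown for the called genes that hold a match to a motif of the hepatocyte nuclear factor 4 alpha type, because Hnf4a, a transcription factor of liver and proximal tubule, is a known activator of many P450 genes, and for one P450 gene of the same family that was not called. The sequences are from RefSeq (GRCm38.p6, the assembly of mm10), run 5′ to 3′ on the gene's strand to the end of the window shown, and carry the match in capitals. The pattern CAAAGNNCA was searched on both strands over 250 bases before each start site, and CAAAGTCCA is the same pattern with both open letters set.
Cyp2d26, called lower, chr15:82794246-82794335, minus strand: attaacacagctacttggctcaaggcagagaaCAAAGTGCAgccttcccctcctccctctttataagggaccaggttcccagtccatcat
Cyp2c69, called lower, chr19:39886770-39886859, minus strand: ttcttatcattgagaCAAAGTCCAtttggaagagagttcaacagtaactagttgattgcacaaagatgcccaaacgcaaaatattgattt
Cyp4b1, called lower, chr4:115647722-115647871, minus strand, match on the opposite strand: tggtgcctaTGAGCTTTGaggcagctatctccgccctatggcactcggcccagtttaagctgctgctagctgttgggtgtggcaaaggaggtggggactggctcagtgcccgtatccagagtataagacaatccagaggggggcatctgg
Cyp2d9, not called, chr15:82452287-82452376, plus strand: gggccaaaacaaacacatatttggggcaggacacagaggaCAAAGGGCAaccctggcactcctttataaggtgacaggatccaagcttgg
The match begins at base -58 from the start site in Cyp2d26, -75 in Cyp2c69, -141 in Cyp4b1 and -50 in Cyp2d9. Of the 77 P450 promoters searched, a single promoter per gene, 27 (35.1%) held CAAAGNNCA and 11 (14.3%) held CAAAGTCCA. Over all 32851 promoters listed the shares were 5.49% and 0.384%. These were not limited to a single promoter per gene, so the shares differ in unit. Many of these genes are close paralogs that share promoter sequence by descent, so the matches are not independent. Among tested P450 genes the pattern stood in called genes (Cyp2d26, Cyp2c69, Cyp4b1) and in genes that were not called (Cyp2d9, Cyp2d10, Cyp51). The other P450 genes with a match had too few counts here to be tested, so the P450 shares mostly describe genes hardly detected in these libraries. A match describes letters in a window and does not show a binding site. Hnf4a itself had 204.7, 520.6 and 279.2 CPM in IR24h and 888.0, 789.2 and 775.8 CPM in sham (log2 fold change -1.29 ± 0.39, SE; adjusted p = 0.06, edgeR; 0.00871 with DESeq2, 0.0412 with limma-voom and 0.00137 without IR24h library 2), and it was picked out here after its values were seen.

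The Cyp2j genes were grouped with the epoxygenases of arachidonic acid by family, not by the activity of each enzyme. Of the 6 tested, 3 fell in IR24h and 0 rose, beside 7.62% and 8.65% of all genes tested. Their median log2 fold change was -1.11. The Cyp2j genes lie side by side on the minus strand of chromosome 4. Cyp2j5 (ENSMUSG00000052520, chromosome 4, 96628773 to 96664154), an epoxygenase abundant in mouse kidney, had 180.4, 613.5 and 404.0 CPM in IR24h, against 1281.4, 1267.5 and 1256.8 CPM in sham. The groups did not overlap, the sham libraries were within a few percent of one another and the IR24h libraries were widely spread (log2 fold change -1.67 ± 0.45, SE; adjusted p = 0.0441, edgeR). Cyp2j11 (ENSMUSG00000066097, chromosome 4, 96294508 to 96348662) had 13.6, 23.4 and 18.6 CPM in IR24h and 152.5, 166.3 and 178.1 CPM in sham, a log2 fold change of -3.15 ± 0.29 (SE; adjusted p = 0.00129, edgeR). Its IR24h libraries were all low. Cyp2j13 (ENSMUSG00000028571, chromosome 4, 96027534 to 96077546) had 5.4, 65.8 and 37.2 CPM in IR24h and 290.2, 280.0 and 310.2 CPM in sham (log2 fold change -3.01 ± 0.76, SE; adjusted p = 0.0359, edgeR). The calls of Cyp2j5 and Cyp2j13 were lost without IR24h library 3 (adjusted p of 0.104 and 0.102) and without any 1 sham library (0.137 to 0.142 and 0.097 to 0.113) and by library size only (0.118 and 0.0759), and without IR24h library 2 the fold change of Cyp2j13 was -3.76.

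The other tested Cyp2j genes, which lie between the fallen ones, did not pass the test. Cyp2j6 had 39.8, 46.7 and 48.8 CPM in IR24h and 41.3, 33.7 and 42.6 CPM in sham (log2 fold change 0.20 ± 0.23, SE; adjusted p = 0.574), and its value is -0.22 with scaling by library size only. Cyp2j9 had 14.9, 11.1 and 11.2 CPM in IR24h and 14, 14.4 and 15.9 CPM in sham (-0.25 ± 0.25, SE; adjusted p = 0.522, edgeR). Both genes overlapped between the groups. Cyp2j7, near the limit of detection, had 1.85, 0.204 and 1.57 CPM in IR24h and 2.0, 1.39 and 1.62 CPM in sham (-0.55 ± 0.72, SE; adjusted p = 0.628, edgeR; 0.02 without IR24h library 2, -1.21 by library size only and -1.17 with limma-voom). The proportions between neighbours can also be read inside a library, where no scaling enters. Counts of Cyp2j5 per count of Cyp2j6 were 4.54, 13.1 and 8.28 in IR24h, against 31.0, 37.7 and 29.5 in sham, and those of Cyp2j11 per count of Cyp2j6 were 0.343, 0.502 and 0.382 against 3.69, 4.94 and 4.19. Cyp2j13 per count of Cyp2j9 gave 0.362, 5.9 and 3.33 in IR24h and 20.7, 19.5 and 19.6 in sham. Each of these ratios was lower in every IR24h library than in every sham library. The Cyp2j genes share few 50-base stretches with one another, at most 2.32% in a tested member. Cyp2j8 was too low to be tested, with 0 counts in IR24h and 9, 4 and 10 counts in sham, at least 5.13-fold lower when set against 3 counts over the group.

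**Figure D2:**
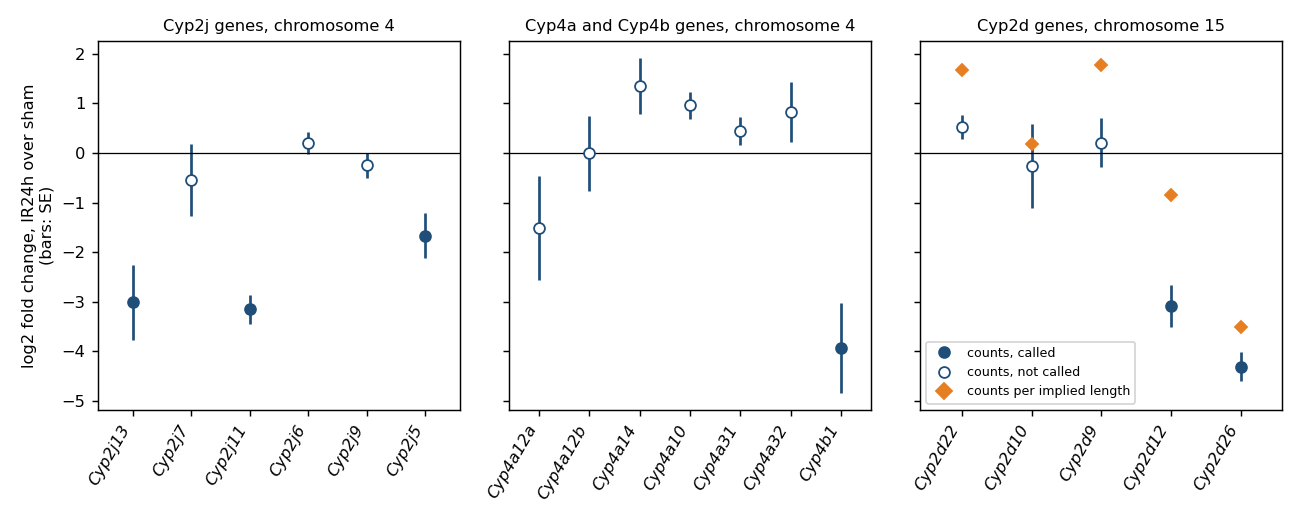
Log2 fold change of IR24h over sham (vertical axis, bars are SE, filled points were called) for the tested genes of the Cyp2j group, the Cyp4a and Cyp4b1 group, both on chromosome 4, and the Cyp2d group on chromosome 15, in the order of their position; diamonds give counts per implied length where that length differed between the groups. Called and uncalled genes lie within the same group. In the Cyp2d group the diamonds lie above the points by construction, because the implied lengths are longer in sham.

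Of the 15 Cyp2c genes listed, the other epoxygenase family, 2 were tested and 5 had 0 counts everywhere. Cyp2c69 (ENSMUSG00000092008, chromosome 19, 39842814 to 39886799) had 0 counts in all 3 IR24h libraries, against 31, 31 and 30 counts in sham, which is at least 20.5-fold lower against 3 counts over the group (adjusted p = 0.00827, edgeR). In its transcripts 54.3% of 50-base stretches also occur in other genes, mostly Cyp2c40, so its reads may be assigned with doubt, and the call was lost without any 1 sham library (adjusted p of 0.0513 to 0.0534). With 0 counts in IR24h its implied length could not be compared, and on chromosome 19 that length differed for 61.2% of genes. For Cyp2c69 too, a difference in counts and a difference in processing cannot be told apart. Cyp2c44, an epoxygenase of mouse kidney, had 16.3, 8.43 and 18.9 CPM in IR24h and 27.2, 38.1 and 34.3 CPM in sham. The groups did not overlap, yet the difference missed the threshold (log2 fold change -1.20 ± 0.35, SE; adjusted p = 0.0569, edgeR). It passed with DESeq2 (adjusted p = 0.0149), with limma-voom (0.0459), by library size only (0.0357) and without IR24h library 2 (0.0147). Cyp2c55 was present in 1 library alone. It had 95, 0 and 0 counts in IR24h and 0 in every sham library. In that same library Muc2, the mucin of intestinal goblet cells, had 122 counts, against 0 and 1 in the other IR24h libraries and 0 in sham, and Cdx2, an intestinal transcription factor, had 7 counts and 0 elsewhere. These 2 genes were picked after their values were seen, and their part in the Cyp2c55 count was not tested.

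Of the 8 listed omega-hydroxylases of the Cyp4a family, 6 were tested, 0 fell and 0 rose, and the median log2 fold change was 0.64. Their CPM summed to 1205.8, 1337.6 and 891.0 in IR24h, against 675.3, 625.4 and 840.4 in sham, while those of the Cyp2j genes summed to 256.0, 760.7 and 521.4 in IR24h and 1782.0, 1763.3 and 1805.7 in sham. Cyp4a10, an enzyme induced by peroxisome proliferator-activated receptor alpha, had 628.0, 492.3 and 520.6 CPM in IR24h, against 254.9, 241.6 and 348.0 CPM in sham. All IR24h libraries were above all sham libraries, but the difference stood just outside the threshold (log2 fold change 0.96 ± 0.27, SE; adjusted p = 0.0532, edgeR). It passed with DESeq2 (0.00456), with limma-voom (0.0398), with upper-quartile scaling (0.0423), in the fit per implied length (0.0482) and without IR24h library 2 (0.0101), and it did not pass by library size only (log2 fold change 0.46, adjusted p = 0.517). Cyp4a14, induced by the same receptor, had 160.5, 362.0 and 79.7 CPM in IR24h and 48.5, 97.7 and 89.9 CPM in sham (1.35 ± 0.56, SE; adjusted p = 0.135, edgeR; 0.60 and 0.24 without IR24h library 2), with overlap between the groups. Cyp4a31 had 407.7, 336.6 and 260.3 CPM in IR24h and 245.8, 204.6 and 287.8 CPM in sham (0.44 ± 0.28, SE; adjusted p = 0.304, edgeR; -0.04 by library size only). Cyp4a32, a low gene, had 2.27, 11.5 and 3.23 CPM in IR24h and 3.14, 2.93 and 3.67 CPM in sham (0.83 ± 0.60, SE; adjusted p = 0.366, edgeR; -0.23 without IR24h library 2).

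The androgen-dependent omega-hydroxylase Cyp4a12a, the main arachidonate hydroxylase of the male mouse kidney, depended on IR24h library 2. It had 1.7, 65.1 and 9.0 CPM in IR24h and 94.6, 44.0 and 79.0 CPM in sham (log2 fold change -1.51 ± 1.05, SE; adjusted p = 0.345, edgeR), and without IR24h library 2 the value was -3.70 (adjusted p = 0.00541), while with the replicate block it was -2.77 and with limma-voom -2.44, neither past the threshold. Its near-copy Cyp4a12b, with which it shares 48.9% of its 50-base stretches, had 5.68, 70.2 and 18.1 CPM in IR24h and 28.3, 34.6 and 32.1 CPM in sham (-0.01 ± 0.75, SE; adjusted p = 0.996, edgeR; -1.40 and 0.0394 without IR24h library 2, 0.48 without IR24h library 1 and -0.68 with the replicate block). IR24h library 2 was the highest and IR24h library 1 the lowest of the IR24h libraries in both genes. Cyp4a12a counts per count of Cyp4a12b were 0.3, 0.928 and 0.498 in IR24h, against 3.34, 1.27 and 2.46 in sham. Cyp4a10, Cyp4a31 and Cyp4a32 also share sequence, with 29.8, 20.6 and 43.8% of their stretches found in other genes, and their single values are uncertain to that extent.

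Cyp4b1 (ENSMUSG00000028713, chromosome 4, 115624725 to 115647723, minus strand), which hydroxylates fatty acids and activates some foreign compounds, was the most abundant P450 transcript of the sham cortex and fell in IR24h. It had 42.9, 497.1 and 89.7 CPM in IR24h, against 3286.5, 2988.9 and 3359.5 CPM in sham. The groups lay far apart, with library 2 the highest of the IR24h libraries (log2 fold change -3.93 ± 0.91, SE; adjusted p = 0.0273, edgeR). Without IR24h library 2 the log2 fold change was -5.60 (adjusted p = 0.000313), and it was -4.76 with the replicate block and -4.69 with limma-voom. The call was lost without IR24h library 3 (0.0787), without any 1 sham library (0.0817 to 0.0906) and by library size only (0.059), with log2 fold changes of -4.03 to -3.57. It lies next to the Cyp4a genes. Cyp4b1 counts per count of Cyp4a10 were 0.0683, 1.01 and 0.172 in IR24h, against 12.9, 12.4 and 9.65 in sham.

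Of the 7 tested genes in the list of Cyp4b, Cyp4f, Cyp4v and Cyp4x, Cyp4b1 was the 1 that was called. Over all genes tested, 7.62% were called lower. The median log2 fold change of the 7 was -0.43. The Cyp4f enzymes hydroxylate leukotrienes and long-chain fatty acids, and their 5 tested members ranged between -1.50 (Cyp4f14, adjusted p = 0.202, edgeR) and 1.23 (Cyp4f18, 0.182). Single libraries moved these values: Cyp4f14 was at -2.56 (adjusted p = 0.0594) without IR24h library 1, and without IR24h library 2 Cyp4f17, at -0.73 with all libraries, was at -1.73 (0.00368) and Cyp4f18 at 1.64 (0.0195). By library size only Cyp4f14 was at -2.19. The 4 of them on chromosome 17 (Cyp4f13, Cyp4f14, Cyp4f16 and Cyp4f17) had implied lengths that differed between the groups, and per implied length they ranged between -0.74 and 0.38. Cyp4f18, an enzyme of neutrophils, had 1.99, 0.767 and 2.88 CPM in IR24h and 1.03, 0.625 and 0.701 CPM in sham. Beside it, the macrophage and myeloid markers Itgam, Msr1, Lyz2 and Cd68 were called higher and Adgre1, Csf1r and Mrc1 were not, and their part in Cyp4f18 was not tested. Cyp4v3, a fatty acid hydroxylase, had 6.39, 10.5 and 14.2 CPM in IR24h and 5.65, 4.23 and 5.18 CPM in sham, with no overlap (1.05 ± 0.36, SE; adjusted p = 0.0855, edgeR; 0.0309 with DESeq2 and 0.0452 without IR24h library 1). Cyp4f15 had 0 counts in IR24h and 19, 9 and 5 counts in sham, at least 7.36-fold lower against 3 counts over the group, and was too low to be tested. This gene is also on chromosome 17, and with 0 counts in IR24h its implied length could not be compared.

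**Figure D3:**
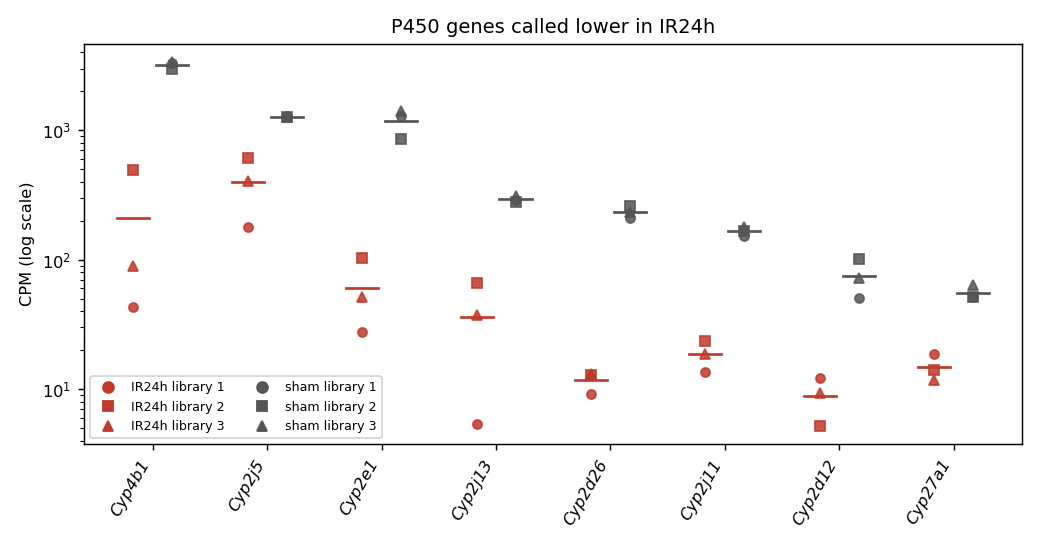
CPM (log scale, vertical axis) of the 8 called P450 genes with at least 10 CPM in sham, one symbol per library and a line at the group mean, IR24h left of sham for each gene; Cyp2c69, with 0 counts in IR24h, is not drawn. In all 8 genes the 3 IR24h libraries lie below the 3 sham libraries, and IR24h library 2 is the highest of its group in Cyp4b1, Cyp2j5, Cyp2e1, Cyp2j13 and Cyp2j11.

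All 4 vitamin D hydroxylases were tested. Of these 1 fell and 0 rose, beside 7.62% and 8.65% of all genes tested, and their median log2 fold change was 0.02. Cyp27a1 (ENSMUSG00000026170, chromosome 1, 74713574 to 74737892), a mitochondrial enzyme that hydroxylates vitamin D and sterol side chains, had 18.8, 14 and 11.8 CPM in IR24h, against 51.1, 51.5 and 63.2 CPM in sham. Both groups were tight and did not overlap (log2 fold change -1.90 ± 0.28, SE; adjusted p = 0.0061, edgeR). Cyp24a1, the enzyme that breaks down the active hormone calcitriol, had 44.7, 792.2 and 36.0 CPM in IR24h, against 30.9, 39.4 and 35.5 CPM in sham. Library 2 alone was high, and the other 2 IR24h libraries were at the sham level or a little above. The log2 fold change was 3.05 ± 1.16 (SE; adjusted p = 0.111, edgeR), and without IR24h library 2 it was 0.19 (adjusted p = 0.466). With the replicate block it was 1.46 and with limma-voom 1.63.

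Cyp27b1, the proximal tubule enzyme that makes calcitriol, had 14.1, 3.07 and 25.8 CPM in IR24h, against 9.36, 12.2 and 9.92 CPM in sham (log2 fold change 0.44 ± 0.65, SE; adjusted p = 0.665, edgeR). Its lowest library was IR24h library 2, the one in which Cyp24a1 was highest. Without it the value was 0.92 (adjusted p = 0.039), without IR24h library 3 it was -0.33, and by library size only it was -0.17 and with limma-voom -0.15, so its direction changed with the setting. Cyp27b1 counts per count of Cyp24a1 were 0.314, 0.00387 and 0.716 in IR24h and 0.303, 0.31 and 0.28 in sham. The 3 sham libraries were nearly equal, whereas the IR24h libraries lay on both sides of them. Cyp2r1, a hydroxylase that makes the circulating form of vitamin D in liver, had 0, 1.69 and 0.175 CPM in IR24h and 0.914, 0.913 and 1.02 CPM in sham (-0.41 ± 0.96, SE; adjusted p = 0.793, edgeR; -3.08 and 0.0221 without IR24h library 2, 0.04 without IR24h library 1, -1.19 with the replicate block and -1.40 with limma-voom).

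Around these enzymes, 16 of 17 listed genes of vitamin D handling were tested. Of these 1 rose and 4 fell, beside 8.65% and 7.62% of all genes tested, with a median log2 fold change of -1.15. The fallen ones were Slc34a3 and Slc34a1, the sodium-phosphate carriers of the proximal tubule, Calb1, a calcium-binding protein of the distal tubule, and Kl, the co-receptor of the phosphate hormone Fgf23. Slc34a3 had 2.27, 3.32 and 1.14 CPM in IR24h and 106.0, 112.1 and 123.3 CPM in sham (-5.64 ± 0.44, SE; adjusted p = 0.000873, edgeR), and Slc34a1 had a log2 fold change of -4.25 ± 0.42 (SE; adjusted p = 0.00157, edgeR). The risen gene was the calcium channel Trpv6, with 6.53, 3.37 and 7.6 CPM in IR24h and 1.88, 1.39 and 1.67 CPM in sham (1.81 ± 0.42, SE; adjusted p = 0.0272, edgeR). Its call was lost without IR24h library 1 (0.0647) or 3 (0.0716), without any 1 sham library (0.102 to 0.134), by library size only (0.109) and with the replicate block (0.0509). Vdr, the receptor of calcitriol, had 109.4, 312.3 and 71.8 CPM in IR24h and 250.0, 277.2 and 255.2 CPM in sham (-0.66 ± 0.52, SE; adjusted p = 0.404, edgeR), and was highest in IR24h library 2 as Cyp24a1 was.

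The retinoid hydroxylases comprised 5 genes, of which 3 were tested, with 0 called. Cyp26b1, which degrades retinoic acid, had 3.84, 1.28 and 2.45 CPM in IR24h and 2.68, 9.04 and 1.46 CPM in sham, and 1 sham library was far above the rest (log2 fold change -0.84 ± 0.74, SE; adjusted p = 0.454, edgeR; 0.25 without sham library 2 and -1.47 by library size only). Cyp26a1 and Cyp26c1, with the same role, were too low to be tested. Cyp1b1, which oxidises retinol and oestradiol, had 72.4, 15 and 23.4 CPM in IR24h, against 12.3, 10.9 and 6.96 CPM in sham. The groups did not overlap and IR24h library 1 was the highest (1.87 ± 0.60, SE; adjusted p = 0.0702, edgeR). It lies on chromosome 17, its implied length was 5128 bases in IR24h and 8547 in sham, and per implied length the log2 fold change was 2.61 (adjusted p = 0.0246). It also passed with DESeq2 (0.0105) and without IR24h library 2 (0.00935). Without IR24h library 1 the log2 fold change was 0.93 (adjusted p = 0.146) and by library size only 1.10 (0.167). Cyp2s1, an enzyme that metabolises retinoic acid in human cells, had 47.3, 37.8 and 32.2 CPM in IR24h and 17.9, 20.7 and 24.5 CPM in sham. Its IR24h libraries were all above the sham libraries, with a log2 fold change of 0.89 ± 0.26 (SE; adjusted p = 0.0581, edgeR; 0.0143 with DESeq2, 0.0439 with upper-quartile scaling and 0.0206 without IR24h library 2).

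Of 16 tested genes of retinoid synthesis and signalling, 2 rose and 2 fell, beside 8.65% of all genes tested called higher and 7.62% called lower. The risen ones, Aldh1a2 and Aldh1a1, make retinoic acid, while Aldh1a3 was not called (2.31 ± 1.01, SE, adjusted p = 0.152, edgeR). Aldh1a2 had 27.0, 18.5 and 25.9 CPM in IR24h, against 1.6, 1.83 and 2.27 CPM in sham (log2 fold change 3.64 ± 0.32, SE; adjusted p = 0.00107, edgeR). Aldh1a1 had 10.8, 44.4 and 8.04 CPM in IR24h and 2.91, 3.37 and 3.72 CPM in sham (2.67 ± 0.67, SE; adjusted p = 0.0347, edgeR; 1.48 and 0.005 without IR24h library 2), and that call was lost without any 1 sham library (0.122 to 0.131), by library size only (0.105) and with limma-voom (0.0607). The fallen ones were Aldh8a1, which can oxidise retinal, at -1.27 ± 0.23 (SE; adjusted p = 0.0126, edgeR), and the retinal reductase Dhrs4 at -1.10 ± 0.24 (SE; adjusted p = 0.022, edgeR). Both were lost without any 1 sham library (0.075 to 0.0806 and 0.0877 to 0.121) and by library size only (0.0516 and 0.0866), and Dhrs4 also with the replicate block (0.06).

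**Figure D4:**
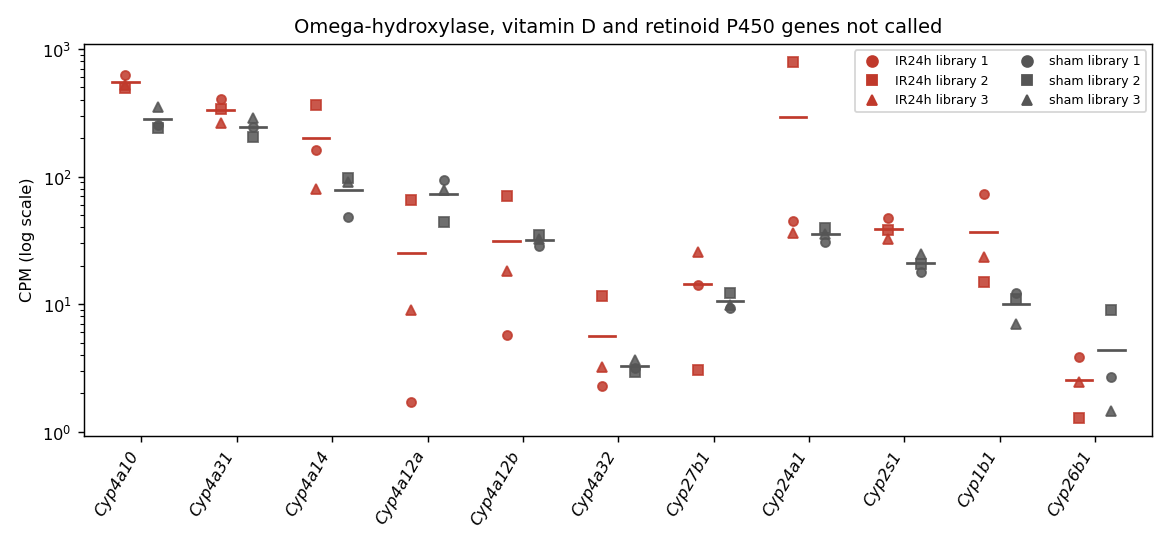
CPM (log scale, vertical axis) of the Cyp4a genes and of vitamin D and retinoid P450 genes that were not called, one symbol per library and a line at the group mean, IR24h left of sham for each gene; Cyp2r1, with a library at 0, is not drawn. Cyp4a10, Cyp2s1 and Cyp1b1 show no overlap between the groups, and IR24h library 2 stands apart in Cyp24a1, Cyp4a12a and Cyp4a12b.

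Cyp1a1, the classic target of the aryl hydrocarbon receptor, had 0.568, 0.46 and 0.437 CPM in IR24h, against 1.08, 1.63 and 1.35 CPM in sham, and did not pass (log2 fold change -1.48 ± 0.46, SE; adjusted p = 0.0666, edgeR). It lay below sham in every IR24h library, unlike Cyp1b1, a target of the same receptor. Cyp1a2 had 3, 0 and 0 counts in IR24h and 0 in sham. Ahr, the receptor, was at 4.4, 7.26 and 2.97 CPM in IR24h and 7.02, 5.63 and 4.75 CPM in sham (-0.24 ± 0.40, SE; adjusted p = 0.71, edgeR).

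Of the 7 P450 genes of cholesterol and bile acid metabolism, 5 were tested and 1, Cyp27a1 above, fell, beside 7.62% of all genes tested. The median log2 fold change of the 5 was -1.05. Cyp51, which removes a methyl group from lanosterol on the way to cholesterol, had 34.1, 64.2 and 81.6 CPM in IR24h and 135.2, 125.9 and 162.7 CPM in sham. The groups did not overlap, and the difference was just outside the threshold (-1.23 ± 0.35, SE; adjusted p = 0.0528, edgeR; 0.00894 with DESeq2, 0.0438 with limma-voom, 0.0477 in the fit per implied length, 0.0272 without IR24h library 2 and 0.0488 without IR24h library 3). Cyp7b1, an oxysterol hydroxylase, had 17.5, 13.1 and 42.4 CPM in IR24h and 38.9, 22.4 and 89.4 CPM in sham, wide in both groups (-1.05 ± 0.62, SE; adjusted p = 0.268, edgeR; -1.72 without IR24h library 3 and -0.31 without sham library 3). Cyp39a1, another oxysterol hydroxylase, had 5.97, 5.42 and 9.09 CPM in IR24h and 6.74, 6.49 and 9.12 CPM in sham (-0.13 ± 0.33, SE; adjusted p = 0.813, edgeR), and its value was 0.84 per implied length. Cyp46a1, the cholesterol hydroxylase of neurons, had 7.81, 0.767 and 4.46 CPM in IR24h and 2.11, 1.01 and 2.16 CPM in sham (1.27 ± 0.77, SE; adjusted p = 0.283, edgeR; 1.78 and 0.0162 without IR24h library 2, 0.53 and 0.691 without IR24h library 1, 0.51 by library size only and 0.55 with limma-voom). Cyp7a1 and Cyp8b1, the bile acid enzymes of liver, had 0 counts in all 6 libraries.

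Among the drug-metabolising Cyp2a, 2b, 2d, 2e, 2f, 2g and 3a genes, 10 of 30 were tested. Of these 3 fell, beside 7.62% of all genes tested, with a median log2 fold change of -0.03. Cyp2e1 (ENSMUSG00000025479, chromosome 7, 140763739 to 140774987), which oxidises ethanol and small solvents, had 27.6, 102.3 and 51.6 CPM in IR24h, against 1292.2, 851.6 and 1408.8 CPM in sham. The highest IR24h library was below the lowest sham library by a wide margin (log2 fold change -4.29 ± 0.56, SE; adjusted p = 0.00422, edgeR; -4.90 without IR24h library 2). Cyp2d26 (ENSMUSG00000022445, chromosome 15, 82790101 to 82794294) had 9.23, 12.9 and 13.1 CPM in IR24h and 210.2, 258.6 and 232.6 CPM in sham, with both groups tight (-4.31 ± 0.29, SE; adjusted p = 0.000708, edgeR). Its implied length was 1645 bases in IR24h and 2875 in sham, and per implied length it still fell, at -3.50 (adjusted p = 0.000756). Cyp2d12 (ENSMUSG00000096852, chromosome 15, 82555072 to 82560403) had 12.2, 5.16 and 9.35 CPM in IR24h and 50.9, 100.4 and 72.1 CPM in sham (-3.08 ± 0.42, SE; adjusted p = 0.0051, edgeR; -3.67 by library size only), but its implied length was 1614 bases in IR24h and 7564 in sham. Per implied length its log2 fold change was -0.85 (adjusted p = 0.169), so for this gene the difference in counts and the processing cannot be told apart.

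All 5 tested Cyp2d genes had a longer implied length in sham. Their log2 fold changes per implied length are therefore higher than by counts by construction. Cyp2d22 had 34.2, 32.1 and 27.2 CPM in IR24h and 19.1, 23.4 and 22.1 CPM in sham, without overlap (log2 fold change 0.53 ± 0.24, SE; adjusted p = 0.157, edgeR), and per implied length the value was 1.67 (adjusted p = 0.00476). Cyp2d9, a testosterone hydroxylase of male mice, had 146.0, 32.4 and 71.8 CPM in IR24h and 75.4, 58.8 and 82.1 CPM in sham (0.21 ± 0.50, SE; adjusted p = 0.798, edgeR; 1.77 and 0.0508 per implied length). Its direction turned without IR24h library 1 (-0.47), by library size only (-0.52), with the replicate block (-0.04) and with limma-voom (-0.05). Cyp2d10 was close to the limit of detection. Cyp2d26 counts per count of Cyp2d22 were 0.27, 0.403 and 0.482 in IR24h, against 11, 11.1 and 10.5 in sham, and the implied length of Cyp2d22 was 2771 bases in IR24h and 6072 in sham.

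The steroid hydroxylase Cyp2a4 and the coumarin hydroxylase Cyp2a5 overlapped between the groups. Cyp2a4 had 282.8, 128.8 and 475.3 CPM in IR24h and 194.1, 124.4 and 261.1 CPM in sham (log2 fold change 0.61 ± 0.50, SE; adjusted p = 0.421, edgeR). Cyp2a5 had 57.1, 221.3 and 107.9 CPM in IR24h and 104.4, 70.7 and 122.3 CPM in sham (0.38 ± 0.49, SE; adjusted p = 0.619, edgeR; -0.27 without IR24h library 2). These near-copies share 38.0 and 37.0% of their 50-base stretches with other genes, so reads may be split between them. Cyp2e1 counts per count of Cyp2a5, a gene on the same chromosome, were 0.483, 0.462 and 0.478 in IR24h and 12.4, 12.0 and 11.5 in sham, nearly constant within each group although both genes varied several-fold between the IR24h libraries. Of the Cyp3a genes, only Cyp3a13 was tested (1.06 ± 0.70, SE; adjusted p = 0.319, edgeR), and 7 others had 0 counts in all 6 libraries.

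The 6 P450 genes of steroid hormone synthesis were at or near 0. Cyp11a1, Cyp11b1, Cyp11b2, Cyp19a1 and Cyp21a1 had 0 counts everywhere, and Cyp17a1 had 6, 3 and 8 counts in IR24h and 2, 3 and 10 in sham. A list of P450 genes with few known substrates held 4 tested genes, Cyp2s1 and Cyp4v3 above and Cyp2u1 and Cyp20a1, of which 0 were called. Cyp2u1, which hydroxylates long-chain fatty acids, had 14.6, 3.99 and 8.13 CPM in IR24h and 3.14, 4.76 and 4.64 CPM in sham (1.07 ± 0.49, SE; adjusted p = 0.17, edgeR; 1.42 and 0.0143 without IR24h library 2, 0.40 by library size only), and 10.5% of its exon bases overlap a gene on the other strand. Cyp20a1 had 15.3, 13.8 and 15.6 CPM in IR24h and 12.7, 12.8 and 14.9 CPM in sham (0.15 ± 0.24, SE; adjusted p = 0.697, edgeR; -0.32 by library size only).

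**Figure D5:**
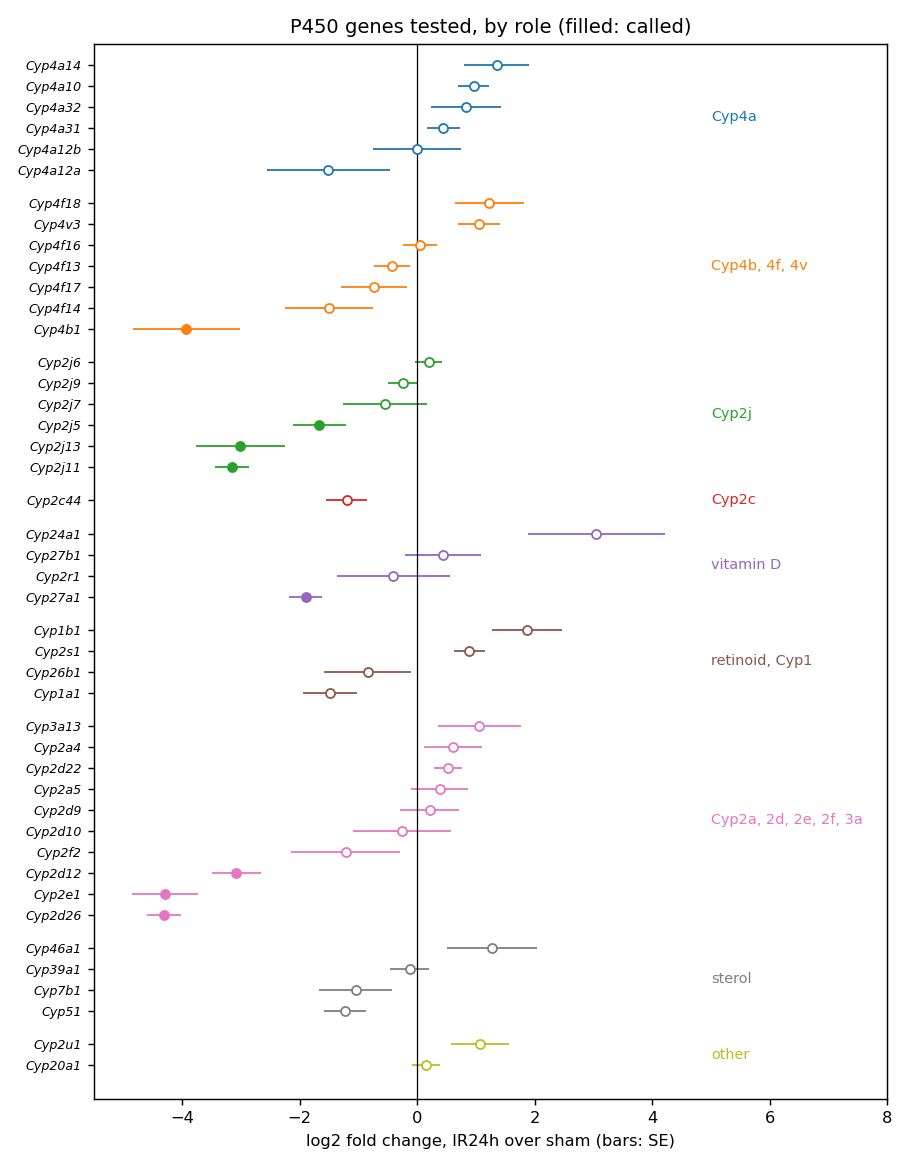
Log2 fold change of IR24h over sham (horizontal axis, bars are SE) for 44 of the 45 tested P450 genes, grouped by role, with filled points for called genes; Cyp2c69, with 0 counts in IR24h, is not drawn. The 8 filled points all lie below 0, and the Cyp4a genes lie between -1.51 and 1.35.

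P450 enzymes need a supply of electrons and haem. Of 16 genes of electron supply and haem synthesis, 1 fell and 0 rose, with a median log2 fold change of -0.41. Over all genes tested, 7.62% were called lower and 8.65% higher. The fallen gene was Fdx1, the ferredoxin that feeds mitochondrial P450 enzymes such as Cyp27a1. It had 28.7, 20.1 and 31.3 CPM in IR24h, against 94.4, 97.9 and 99.3 CPM in sham (-1.87 ± 0.26, SE, adjusted p = 0.00544, edgeR). Por, the reductase of microsomal P450 enzymes, had 278.6, 289.2 and 214.5 CPM in IR24h and 342.8, 358.7 and 447.0 CPM in sham (-0.55 ± 0.26, SE; adjusted p = 0.181, edgeR). Of 19 tested transcription factors that act on P450 genes, 1 rose and 5 fell, with a median of -0.77. The 5 were Hlf, Tef and Dbp, clock-output factors of 1 family, the clock repressor Nr1d1, and Cebpa. Hlf had 22.6, 20.9 and 18.9 CPM in IR24h and 57.7, 115.8 and 98.2 CPM in sham (-2.12 ± 0.32, SE; adjusted p = 0.00694, edgeR), and Tef had a log2 fold change of -2.02 ± 0.37 (SE; adjusted p = 0.0137, edgeR; 0.0597 to 0.067 without any 1 sham library). Pparg rose from a low level, with 16, 42 and 22 counts in IR24h and 11, 7 and 16 counts in sham (1.79 ± 0.48, SE, adjusted p = 0.0445, edgeR). That call was lost without IR24h library 1 (0.0867) or 3 (0.0803), without any 1 sham library (0.101 to 0.19), by library size only (0.17), with no filter on low counts (0.0709) and with the replicate block (0.0958). The sources used here do not give the hour at which kidneys were taken.

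Of 11 tested genes that supply arachidonic acid or act beside the P450 enzymes on it, 1 rose and 2 fell, beside 8.65% and 7.62% of all genes tested. Tbxas1, thromboxane synthase, is itself a P450 enzyme under another name. It had 2.56, 3.22 and 3.06 CPM in IR24h and 20.2, 20.8 and 16.6 CPM in sham (log2 fold change -2.69 ± 0.28, SE; adjusted p = 0.0019, edgeR). Ptgs2, the inducible cyclooxygenase, had 100.9, 2.66 and 29.5 CPM in IR24h and 0.228, 0.0481 and 0.162 CPM in sham (8.20 ± 1.47, SE; adjusted p = 0.0126, edgeR; 0.0568 to 0.069 without any 1 sham library and 0.1 with limma-voom), and Ptgs1, the constitutive one, fell (-1.38 ± 0.31, SE; adjusted p = 0.0261, edgeR; 0.087 to 0.118 without any 1 sham library and 0.0644 by library size only). The log2 fold change of Ptgs2 was 6.73 without IR24h library 1 (adjusted p = 0.0264), 7.28 by library size only and 6.82 with limma-voom. Ephx2, the hydrolase that inactivates the epoxides made by Cyp2j and Cyp2c enzymes, had 221.3, 232.5 and 159.2 CPM in IR24h and 363.3, 324.9 and 386.4 CPM in sham (-0.81 ± 0.26, SE; adjusted p = 0.0739, edgeR), again without overlap and without a call.

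Markers of cell types did not all move in the same direction. Over all genes tested, 7.62% were called lower and 8.65% higher. Of 16 proximal tubule markers, 10 fell, 0 rose, the median log2 fold change was -2.61, and they summed to 4460.7, 8387.6 and 4571.7 CPM in IR24h, against 24841.9, 25797.8 and 25668.8 CPM in sham. This sum was highest in library 2 among the IR24h libraries, as were 14 of the 16 markers, while Slc27a2 and Miox were lowest there. The summed fat cell markers were highest in library 2 as well, at 86.2 CPM, and the mitochondrial share was lowest there among the IR24h libraries, at 26.2%. The called genes Cyp4b1, Cyp2e1, Cyp2j5, Cyp2j11 and Cyp2j13 were also highest in library 2. Other called genes were not: Cyp27a1 and Cyp2d12 were highest in library 1 and Cyp2d26 in library 3, and Cyp2c69 had 0 counts in IR24h. Of 6 markers of the straight part of the proximal tubule, 4 fell, and they summed to 2274.9, 994.4 and 3124.8 CPM in IR24h, lowest in library 2, against 3555.7, 2992.9 and 4378.3 CPM in sham. Most of the IR24h sums was Napsa, which was not called. It had 1725.6, 524.2 and 2303.0 CPM in IR24h and 931.3, 851.0 and 1578.1 CPM in sham. Among the IR24h libraries, 3 of the 6 markers were lowest and 2 highest in library 2. The part of these cell markers in the P450 results was not tested. Adrenal markers were near 0, with Cyp11a1, Cyp11b1, Cyp11b2, Cyp21a1 and Nr5a1 at 0 counts in all 6 libraries and a sum of 2.91 to 16.8 CPM in IR24h and 4.45 to 6.69 CPM in sham. Of the liver-defining genes, Tat had 0 counts everywhere and Ahsg at most 4, and Alb had 12.2, 2.76 and 1.57 CPM in IR24h and 6.45, 4.76 and 8.58 CPM in sham; the list of 8 summed to 269.5 to 367.9 CPM in IR24h and 120.5 to 154.6 CPM in sham, with Fgb, Apoa1 and Serpina1a called higher and Ttr lower. Red blood cell markers summed to 14.2 to 85.7 CPM in IR24h and 20.1 to 63.4 CPM in sham. All 4 Y-linked genes examined had counts in all 6 libraries. Kap, an androgen-dependent gene of the proximal tubule, had 10826.0, 5079.9 and 13813.8 CPM in IR24h and 8808.9, 9883.1 and 13142.0 CPM in sham (-0.10 ± 0.47, SE; adjusted p = 0.901, edgeR), while 5 of the 9 genes in the androgen-dependent list fell, Cyp4b1 and Cyp2e1 among them.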

How the data were processed

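Total RNA of 6 renal cortex libraries, 3 IR24h and 3 sham, was sequenced. The authors deposited raw read counts per gene and FPKM values, per the file headers. Per the submitters' processing notes, CASAVA 1.8 and TopHat2 2.0.6 were used, and mm10 and GRCh38 are both named; the identifiers are mouse. The sources used here do not give the counter, the annotation or the strand setting. Counts were the main measurement; the authors' FPKM served for levels within a group and for the implied gene length, compared with a tolerance of 0.01 on the log2 scale where the counts reached 5. Of 22040 genes, 83 had no sham value and were left out. edgeR 4.0.16 (R 4.3.3) kept 13609 genes by its expression filter, scaled libraries with TMM, and tested IR24h against sham by quasi-likelihood, 2-sided, with Benjamini-Hochberg adjustment at 0.05. The fit was tested on simulated data. SE come from the F statistic; CPM use scaled library sizes, and SD are over 3 libraries. An exact permutation test of 3 against 3 libraries cannot go below 0.1 and was not used. Bounds for groups at 0 counts use 3 counts over the group and cover counting error only. Alternatives used DESeq2 1.42.0, limma 3.58.1, other scalings and filters, omitted libraries, a replicate block and the implied length as an offset. Shared 50-base stretches and coordinates are from GENCODE M21 (GRCm38), and promoters from RefSeq. Tables and figures used Python 3.11.15, pandas 2.3.3 and matplotlib 3.10.9.

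The P450 genes and all 26 gene lists were chosen with earlier results of these data known. Values in each library are given for called P450 genes that average 10 CPM or more in the higher group, for detected members (averaging 1 CPM or more in a group) of the vitamin D, retinoid, Cyp1, Cyp4a, Cyp2j, Cyp2c and sterol lists, and for the 5 highest in sham; of each pathway list, the 2 called genes with the largest change in each direction are named. Others named beside them were chosen after their values were seen.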

Additional observations from a re-analysis of the deposited data

How the results depend on the processing

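The 9 lower P450 calls were all kept by DESeq2, limma-voom, RLE and upper-quartile scaling, leaving mitochondrial genes out, no filter on low counts and the replicate block, and 6 were kept by library size only (Cyp4b1, Cyp2j5 and Cyp2j13 were not). Per implied length, an alternative added after seeing the data, 8 were kept. For 7 of the 9 that fit held no length difference, as the lengths were equal or, for Cyp2c69, could not be compared. Of Cyp2d26 and Cyp2d12, whose lengths differed, Cyp2d12 lost its call. Leaving out 1 library gave 5 to 15 lower and 0 to 7 higher P450 calls, and 196 to 3382 lower and 246 to 3297 higher calls over all genes. Higher P450 calls, 0 in the reported analysis, numbered 2 with upper-quartile scaling, 3 per implied length, 4 with DESeq2 and 1 with limma-voom. Over all genes, library size only gave 398 higher and 611 lower calls and DESeq2 2073 and 1695, against 1177 and 1037. Whether the replicate numbers pair the libraries is not known here. Deviations of same-numbered libraries correlated at -0.109, 0.12 and 0.233, and those of differently numbered ones at -0.265 to 0.179. With so few libraries these values cannot settle it. With the replicate block 9 P450 genes were called lower and 0 higher. Among the other genes recomputed, the block ended the calls of Pparg, Trpv6 and Dhrs4 (adjusted p of 0.0958, 0.0509 and 0.06, edgeR). Of 900 log2 fold changes of 60 genes under the alternatives, 772 kept direction and side of the threshold, 59 lost the call, 35 gained it and 34 changed sign, in 16 P450 genes, of which 0 were called in the reported analysis.

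By library size only the log2 fold change was -0.32 for Cyp20a1, -0.17 for Cyp27b1, -0.52 for Cyp2d9, -0.22 for Cyp2j6, -0.04 for Cyp4a31 and -0.49 for Cyp4f16. Under that scaling the all-gene median was -0.39. Cyp20a1, Cyp27b1, Cyp2j6 and Cyp4a31 stayed above this median although their sign changed, while Cyp2d9 and Cyp4f16 lay below it. Per implied length it was 0.17 for Cyp2d10, 0.84 for Cyp39a1, 0.16 for Cyp4f13 and 0.38 for Cyp4f17. With limma-voom it was -0.15 for Cyp27b1, -0.05 for Cyp2d9 and -0.02 for Cyp4f16, and for Cyp2d9 it was -0.04 with the replicate block. Cyp4f16 gave -0.01 with no filter, and Cyp4a12b gave 0.04 with upper-quartile scaling and 0.02 without mitochondrial genes. Leaving out 1 library moved Cyp26b1 between -1.27 and 0.25, Cyp27b1 between -0.33 and 0.92, Cyp2a5 between -0.27 and 0.73, Cyp2d10 between -0.83 and 0.20, Cyp2d9 between -0.47 and 0.59, Cyp2j7 between -0.99 and 0.02, Cyp2r1 between -3.08 and 0.04, Cyp39a1 between -0.39 and 0.07, Cyp4a12b between -1.40 and 0.48, Cyp4a32 between -0.23 and 1.19, and Cyp4f16 between -0.19 and 0.14. The cause of these changes was not tested. Genes near 1 CPM, such as Cyp2d10, Cyp2r1 and Cyp2j7, rest on few counts, and with 3 libraries a group the spread of the IR24h libraries limits what could be called.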
